A study of Mus musculus and Homo sapiens with 20 samples.

Results

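Open chromatin was examined around 10 genes of the Hippo-YAP pathway in mouse hepatocytes kept with or without vitamin B2. The genes were chosen by name, with earlier results of these data known. They were the co-activators Yap1 and Wwtr1 (its product is TAZ), the transcription factor Tead1 and the kinase Lats2. To these were added the scaffold and adaptor genes Amotl1, Amotl2 and Ajuba, and the target genes Ccn1, Ccn2 and Ankrd1. Peaks of the 12 hepatocyte libraries that overlapped by at least 1 bp were merged, and a region was assigned to a gene when that gene's body was the nearest protein-coding one and lay within 50 kb. This gave 675 regions near the 10 genes, of 642948 merged regions in all. Of these, 136 had a peak in all 12 libraries and could be tested, of 101575 such regions over the genome.

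The Hippo pathway is a kinase chain that limits organ size, and it is best known in the liver, where its loss lets the organ overgrow. The LATS kinases phosphorylate YAP and TAZ, which then stay in the cytoplasm or are degraded. When the chain is quiet, YAP and TAZ enter the nucleus, bind TEAD proteins on DNA and raise transcription of genes for matrix proteins, of cytoskeletal genes and of several of the pathway's own inhibitors. In hepatocytes, YAP activity is associated with loss of mature identity and with features of bile duct and progenitor cells.

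The study used ATAC-seq, in which a transposase inserts sequencing adapters into accessible DNA, so that peaks of tags mark open chromatin. The hepatocytes carried the AhR_flox genotype in every group. AhR is the aryl hydrocarbon receptor, a transcription factor that binds xenobiotics and other small molecules, and flox denotes target sites of the Cre recombinase. Vitamin B2, or riboflavin, is the precursor of the flavin cofactors FMN and FAD. The 4 hepatocyte groups were control with Ad_Cont, B2_minus with Ad_Cont, control with Ad_Cre and B2_minus with Ad_Cre, each with 3 libraries and a label of 4 weeks. B2_minus denotes vitamin B2 deficiency. The labels do not spell out Ad, do not say what the 4 weeks refer to and do not name the promoter that drives Cre. They also do not say which part of the AhR gene is flanked, or whether the numbered replicates came from separate animals or cultures. All p-values therefore measure the spread between these libraries, which may be technical.

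Each library listed 200698 to 281141 usable peaks holding 3897632 to 5557678 tags, and the lowest tag count listed for a peak was 6 to 8. Values below are scaled tags, the tag count of the highest peak of a library in a region after TMM scaling of the libraries, and are levels on a linear scale. Fold changes are log2 values from edgeR's quasi-likelihood test fitted to all 101575 regions, and a region is called when its p after Benjamini-Hochberg adjustment over all of them is below 0.05. The gene bodies used here carry no exon or UTR boundaries, so a region is placed as inside a gene, at a gene end (reaching within 1 kb of either end) or outside. Hepatocyte marker genes had 120 tested regions, with all 10 genes represented and a median of 66.2 scaled tags at the strongest region of each gene. Of the 8 Kupffer cell markers, Adgre1, Cd5l, Clec4f and Vsig4 had 0 tested regions, and the median strongest region of the others was 12.3 scaled tags. Markers of other liver cells were higher, with tested regions at all 8 genes of each list. Their median strongest region held 54.5 scaled tags for bile duct, 41.9 for endothelial and 24.5 for stellate cell and myofibroblast markers. Of the 9 tested regions near Ahr itself, 0 were called between Ad_Cre and Ad_Cont, with log2 fold changes of -0.40 to 0.55 in control and -0.22 to 0.21 in B2_minus. These regions do not check the recombination, since the flanked part is not given. In these bulk libraries, fewer cells of a type and less open chromatin per cell cannot be told apart.

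The core of the sequence that TEAD proteins bind is GGAATG, or CATTCC on the other strand. It was searched on both strands in the 250 bases before the annotated start sites of the members, because several of them are textbook TEAD targets. RefSeq promoter sequences for GRCm38.p6, the assembly of mm10, were at hand for 8 of the 10 genes, all but Tead1 and Ccn2. The core occurred before 6 of these 8 genes (not Amotl1 or Lats2), while 11.7% of 21263 promoters of 17492 genes held it. The members are counted per gene, over all listed starts of a gene, and the background per promoter. The 8 matches are printed below in 30-base windows, each read 5′ to 3′ on the gene's own strand with the match in capitals. A match describes the letters only.
Ankrd1, chr19:36119950-36119979 (-): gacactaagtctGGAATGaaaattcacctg
Ankrd1, chr19:36120037-36120066 (-): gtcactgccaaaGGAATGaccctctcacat
Ccn1, chr3:145650071-145650100 (-): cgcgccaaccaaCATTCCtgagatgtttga
Amotl2, chr9:102717727-102717756 (+): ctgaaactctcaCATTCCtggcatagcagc
Wwtr1, chr3:57576029-57576058 (-): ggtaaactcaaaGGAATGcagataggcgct
Yap1, chr9:8004720-8004749 (-): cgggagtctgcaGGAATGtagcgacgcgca
Ajuba, chr14:54577808-54577837 (-): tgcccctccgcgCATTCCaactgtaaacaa
Ajuba, chr14:54577830-54577859 (-): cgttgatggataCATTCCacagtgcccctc

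The windows before Ankrd1, Ccn1, Amotl2, Wwtr1 and Yap1 lie within regions that had a peak in all 12 libraries, and those before Ajuba do not. For Amotl2 the searched stretch lies within the annotated gene body, which begins further upstream, and the printed windows of the other genes lie outside theirs. The AP-1 motif TGANTCA, bound by a partner of YAP-driven enhancers, occurred before 0 of the 8 genes and in 6.13% of all promoters. The CArG box, bound by serum response factor, occurred before 0 of the 8 and in 1.39% of all promoters.

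The main comparison asked how vitamin B2 deficiency changed accessibility around these genes, taking the mean of the effects with Ad_Cont and with Ad_Cre. The clearest changes were at 2 regions downstream of Amotl2 and 1 inside Amotl1, genes of a scaffold family that binds YAP, which fell by 0.98, 0.89 and 0.71 on the log2 scale with SEs of 0.176, 0.148 and 0.164 (12 libraries). Of the 14 tested regions within 1 kb of a listed start site, which leave out Tead1 and Ccn2 for want of a listed start, 0 passed the test. Single regions of Yap1, Wwtr1 and Ccn2 rose, and others of Tead1, Amotl2, Ccn1 and Ccn2 fell. Of the 136 tested regions, 3 rose and 9 fell, and 8.82% were thus called against 5.78% of all tested regions. Rises made up 2.21% (2.45% of all regions) and falls 6.62% (3.33% of all regions). The median log2 fold change of the members was -0.0195, beside 0.00494 over all regions, and 52.9% of member regions were negative against 48.9%.

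The balance of rises and falls rested on the scaling and the count on the test. When each library was scaled by its listed tags instead, the median fold change of all regions became 0.10 on the log2 scale. Then 10 of the 136 member regions were higher and 5 lower, beside 9753 higher and 1998 lower of all 101575 regions. The directions given here are therefore relative to the typical region. DESeq2 called 0 of the 136 regions (46 over all regions). In edgeR 3 passed when the spread was not allowed below that of Poisson counting (265 higher and 731 lower over all regions). Over all alternatives the highest adjusted p of each of the 12 called regions was that of DESeq2, 0.0805 to 0.885, and the lowest ran from 2.52e-06 to 0.0309. Leaving out control Ad_Cont replicate 1 left 7 calls, 2 higher and 5 lower (2011 and 2777 over all regions), and each of the other 11 omissions left 8 to 12.

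**Figure D1:**
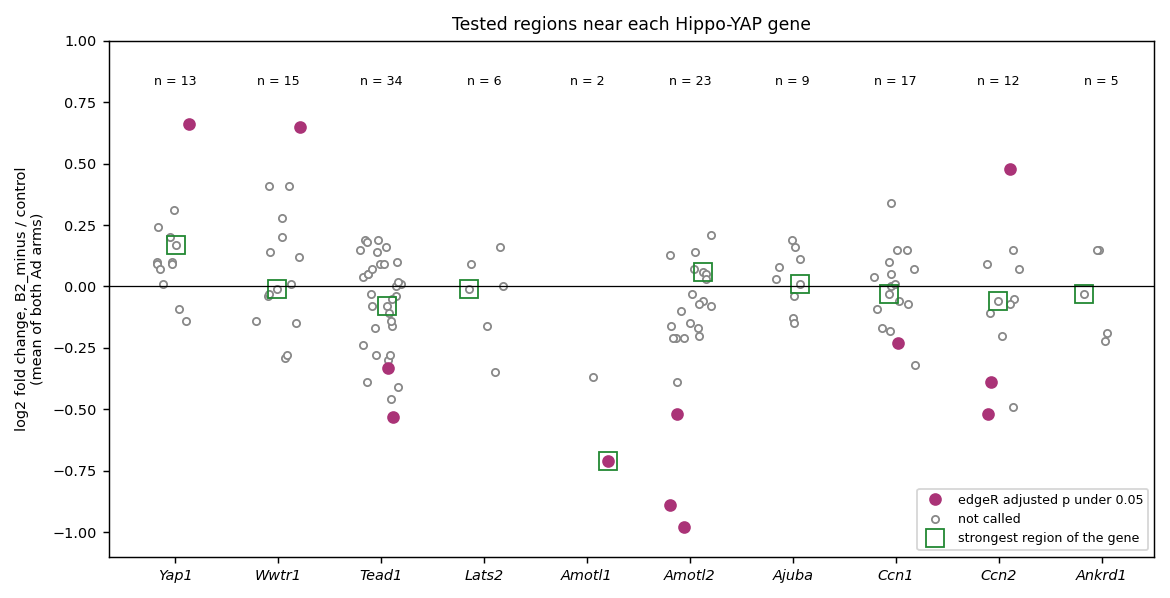
Log2 fold change of B2_minus over control, averaged over both Ad arms, for the 136 tested regions of the 10 genes (1 point per region, spread sideways for legibility). Filled points passed the edgeR test and green squares mark the strongest region of each gene; only at Amotl1 is the strongest region a called one, and the 3 rises sit at Yap1, Wwtr1 and Ccn2.

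Yap1 and Wwtr1 encode the paired co-activators that the pathway restrains. Near Yap1, 80 regions were merged and 13 tested, with 1 rise and 0 falls. The called region, chr9:7943457-7943756, lies inside the gene at 60840 bp from the listed start. It held 8.84, 7.96 and 14.0 scaled tags in control and 19.7, 21.3 and 15.8 in B2_minus with Ad_Cont. With Ad_Cre it held 12.1, 7.95 and 14.9 in control and 18.8, 13.4 and 16.3 in B2_minus. The diet groups separated with Ad_Cont and overlapped with Ad_Cre, where the highest control library exceeded the lowest B2_minus one. The lowest control values, 7.95 and 7.96, were near the 6 to 8 tags of the lowest peaks listed. The averaged log2 fold change was 0.66 (SE 0.179; edgeR adjusted p 0.0119), and the call was lost without control Ad_Cont replicate 2 (0.58, adjusted p 0.0550) or control Ad_Cre replicate 2 (0.56, adjusted p 0.0592).

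The strongest tested region of Yap1, chr9:8003362-8003835 near the start, held 43.1, 68.7 and 54.0 scaled tags in control and 57.3, 73.6 and 73.6 in B2_minus with Ad_Cont. With Ad_Cre it held 56.2, 61.6 and 65.7 in control and 56.3, 66.1 and 69.8 in B2_minus, so the groups overlapped in both arms. Averaged over the arms its log2 fold change was 0.17 (SE 0.0775; edgeR adjusted p 0.190). It passed without control Ad_Cont replicate 2 (0.27, adjusted p 0.0384) and with libraries scaled by listed tags (0.27, adjusted p 0.0172), and its adjusted p over all alternatives ran from 0.0172 to 1. The neighbouring region that holds the printed TEAD core, chr9:8004510-8004900, had a log2 fold change of 0.09 with a 95% interval of -0.08 to 0.25. Intervals here are normal ones from the SE of the fit.

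Near Wwtr1, 81 regions were merged and 15 tested, with 1 rise and 0 falls. The risen region, chr3:57553131-57553484, lies inside the gene. It held 7.74, 13.9 and 8.64 scaled tags in control and 22.4, 14.9 and 13.7 in B2_minus with Ad_Cont, an overlap of 1 library, and 12.1, 12.9 and 10.5 against 19.8, 16.3 and 16.3 with Ad_Cre, with no overlap. Averaged over the arms it rose by 0.65 on the log2 scale (SE 0.178; edgeR adjusted p 0.0133). Its lowest control value, 7.74, was near the 6 to 8 tags of the lowest peaks listed. The call was lost without B2_minus Ad_Cont replicate 1 (0.52, adjusted p 0.104) or control Ad_Cont replicate 1 (0.58, adjusted p 0.0539). The region over the Wwtr1 start, which holds the printed core and was the strongest of the gene at a mean of 96.6 scaled tags, had a log2 fold change of -0.01 with a 95% interval of -0.12 to 0.10.

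Tead1 encodes a DNA-binding partner of YAP and TAZ, and with 194 merged and 34 tested regions it was the member with the most regions. Of these, 0 rose and 2 fell in the averaged comparison. The first, chr7:112733710-112734045 inside the gene, held 18.8, 30.9 and 32.4 scaled tags in control and 19.7, 26.7 and 22.1 in B2_minus with Ad_Cont. With Ad_Cre it held 35.3, 26.8 and 29.8 in control and 16.7, 20.1 and 16.3 in B2_minus. The groups overlapped with Ad_Cont and separated with Ad_Cre. The averaged log2 fold change was -0.53 (SE 0.141; edgeR adjusted p 0.0112), and it missed the threshold without control Ad_Cont replicate 3 (-0.46, adjusted p 0.0583). With Ad_Cre alone it was -0.78 (SE 0.200; edgeR adjusted p 0.0267). That call was lost without control Ad_Cre replicate 1 (adjusted p 0.141) or 3 (0.0753), or without B2_minus Ad_Cre replicate 1 (0.0962) or 3 (0.122).

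The second Tead1 region, chr7:112656120-112656380, lies 22976 bp outside the gene. It held 39.8, 39.8 and 38.9 scaled tags in control and 33.2, 39.4 and 33.7 in B2_minus with Ad_Cont, and 34.2, 45.7 and 39.4 against 28.2, 30.7 and 26.3 with Ad_Cre. Only the Ad_Cre groups separated. Its log2 fold change of -0.33 (SE 0.107; edgeR adjusted p 0.0468) passed narrowly. It remained called without B2_minus Ad_Cont replicate 2, B2_minus Ad_Cre replicate 2 or control Ad_Cre replicate 1, and was lost without any of the other 9 libraries, with adjusted p up to 0.156 (-0.27, without control Ad_Cre replicate 2). A further region inside Tead1, chr7:112826272-112826672, chosen after its values were seen, was lower in all 6 B2_minus libraries than in all 6 control libraries (-0.28) but missed the threshold (edgeR adjusted p 0.0854). The strongest Tead1 region, chr7:112678780-112679434 at the gene end, had a log2 fold change of -0.08 with a 95% interval of -0.22 to 0.06.

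Lats2 encodes the kinase that phosphorylates YAP, and is itself often induced by YAP. Of 54 merged regions 6 were tested, and 0 rose or fell. The strongest, chr14:57746006-57746313 over a start, held 59.7, 59.7 and 66.9 scaled tags in control and 66.3, 66.1 and 67.3 in B2_minus with Ad_Cont. With Ad_Cre it held 68.4, 63.6 and 71.8 in control and 61.5, 67.0 and 58.9 in B2_minus, and groups overlapped in both arms. Its averaged log2 fold change was -0.01 with a 95% interval of -0.15 to 0.13. The lowest unadjusted p of the gene was at chr14:57679976-57680299, with a log2 fold change of -0.35 (edgeR adjusted p 0.244). The gene bodies of Lats2 and Gm52140 overlap, and 12 of the merged and 2 of the tested regions of Lats2 were equally close to both genes. The strongest Lats2 region was among these.

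Amotl1 and Amotl2 encode angiomotin-like proteins, junctional scaffolds that bind YAP and hold it out of the nucleus, and Amotl2 is also a known YAP target. Amotl1 had 30 merged regions, of which 2 were tested, both inside the gene. At chr9:14559514-14559805 the libraries held 22.1, 21.9 and 24.8 scaled tags in control and 13.4, 11.7 and 11.6 in B2_minus with Ad_Cont. With Ad_Cre they held 19.8, 21.9 and 26.3 in control and 18.8, 18.2 and 10.9 in B2_minus. All 6 B2_minus libraries lay below all 6 control libraries. The averaged log2 fold change was -0.71 (SE 0.164; edgeR adjusted p 0.00232), and the region remained called whichever library was left out, at adjusted p up to 0.0209.

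With Ad_Cont alone the same Amotl1 region fell by 0.89 on the log2 scale (SE 0.241; edgeR adjusted p 0.0394), and that call was lost without any single one of the 6 Ad_Cont libraries (adjusted p 0.0777 to 0.150). The other tested region, chr9:14588665-14588965, held 15.5, 12.9 and 21.6 scaled tags in control against 15.2, 12.8 and 13.7 in B2_minus with Ad_Cont, and 19.8, 20.9 and 25.4 against 12.5, 15.3 and 19.0 with Ad_Cre. Its groups overlapped with Ad_Cont and separated with Ad_Cre. It had a log2 fold change of -0.37 with a 95% interval of -0.70 to -0.04 (edgeR adjusted p 0.194).

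Amotl2 had 84 merged and 23 tested regions, of which 0 rose and 3 fell. The lowest p of all members was at chr9:102763502-102763928, 45698 bp downstream of the listed start and 30084 bp beyond the gene. It held 34.3, 25.9 and 30.2 scaled tags in control and 12.5, 21.3 and 23.1 in B2_minus with Ad_Cont. With Ad_Cre it held 25.4, 30.8 and 34.2 in control and 12.5, 14.4 and 15.4 in B2_minus, so that every B2_minus library lay below every control library. The averaged log2 fold change was -0.89 (SE 0.148; edgeR adjusted p 1.41e-05). It remained called without any single library and in 20 of 21 alternative settings, the exception being DESeq2 (adjusted p 0.0805).

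With Ad_Cre alone this Amotl2 region fell by 1.10 (SE 0.213; edgeR adjusted p 0.00217), again whichever library was left out. With Ad_Cont alone its log2 fold change was -0.68 (edgeR adjusted p 0.0729), and the interaction of diet and Ad was -0.42 (SE 0.302; edgeR adjusted p 0.968), so the arms were not shown to differ. Among the genes whose tested regions were most like it over the 12 libraries, by Pearson r of log2 scaled tags, were Epha4 (0.952) and Bsg (0.927), given as a description of libraries that share their diet groups.

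The region chr9:102777465-102777799, 59661 bp downstream of the Amotl2 start, held 22.1, 22.9 and 19.4 scaled tags in control and 8.06, 12.8 and 10.5 in B2_minus with Ad_Cont. With Ad_Cre it held 22.1, 15.9 and 27.2 in control and 15.6, 7.66 and 11.8 in B2_minus. The 6 B2_minus libraries again lay below the 6 control libraries, though the highest of the one and the lowest of the other were close. It had the largest averaged fall among the 136 regions, at -0.98 (SE 0.176; edgeR adjusted p 5.59e-05), and kept its call without any single library. Its lowest B2_minus values, 7.66 and 8.06, were near the 6 to 8 tags of the lowest peaks listed.

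It was also the one member region called in each arm alone. With Ad_Cont it fell by 1.05 (SE 0.256; edgeR adjusted p 0.0185), a call lost without B2_minus Ad_Cont replicate 1 (adjusted p 0.156) or 3 (0.0583), or without control Ad_Cont replicate 1 (0.0586) or 2 (0.0729). With Ad_Cre it fell by 0.91 (SE 0.241; edgeR adjusted p 0.0311), a call lost without B2_minus Ad_Cre replicate 2 (adjusted p 0.230) or 3 (0.101), or without control Ad_Cre replicate 1 (0.0773) or 3 (0.270). The interaction was 0.14 (SE 0.359; edgeR adjusted p 0.996).

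The third fallen region of Amotl2, chr9:102737184-102737760, lies 3766 bp beyond the gene. It held 27.6, 27.9 and 20.5 scaled tags in control against 19.7, 21.3 and 20.0 in B2_minus with Ad_Cont, where the groups overlapped, and 30.9, 20.9 and 22.8 against 18.8, 14.4 and 11.8 with Ad_Cre, where they did not. It fell by 0.52 on the log2 scale (SE 0.153; edgeR adjusted p 0.0227). The call was lost without control Ad_Cont replicate 1 (adjusted p 0.0558) or 2 (0.0669), control Ad_Cre replicate 1 (0.0967) or B2_minus Ad_Cre replicate 3 (0.0904).

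The start of Amotl2 had no called region. The region chr9:102717542-102717826, which covers the start and the printed TEAD core, held 86.2, 93.6 and 85.3 scaled tags in control and 92.3, 97.0 and 88.4 in B2_minus with Ad_Cont, and 101, 82.5 and 93.8 against 93.9, 101 and 94.3 with Ad_Cre. Its log2 fold change was 0.06 (SE 0.0571) with a 95% interval of -0.05 to 0.17. A region at 61756 bp from the start, chr9:102779560-102779820, held a mean of 89.3 scaled tags and had a log2 fold change of 0.07 (edgeR adjusted p 0.541), although it lies next to a fallen one. The falls near Amotl2 were thus single regions among 20 others that did not pass, whose log2 fold changes ran from -0.39 to 0.21.

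**Figure D2:**
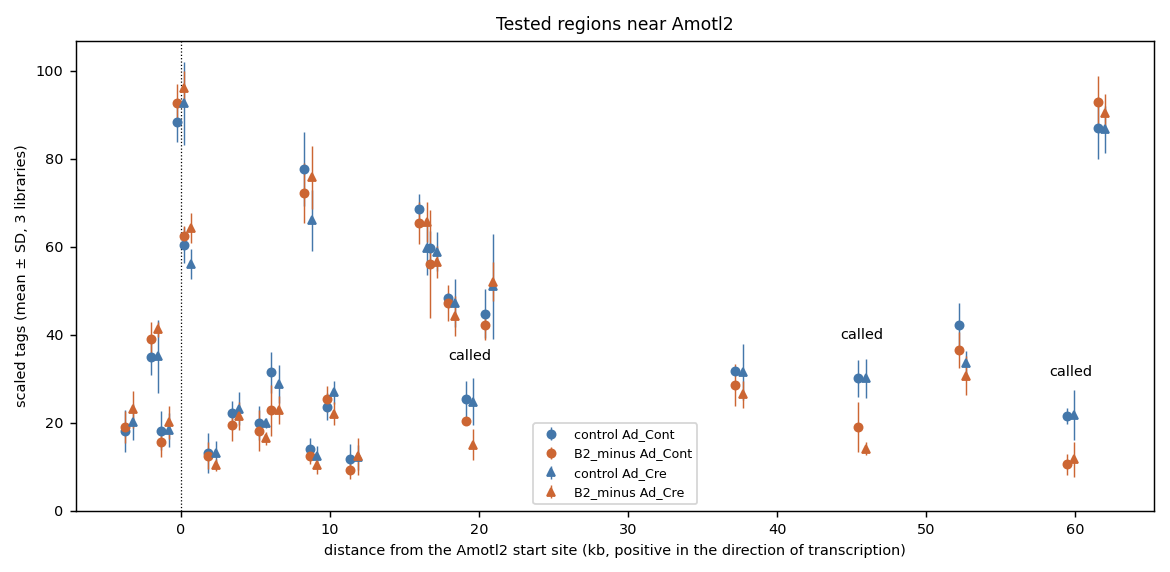
Mean scaled tags (bars: SD, 3 libraries) of the 23 tested regions of Amotl2 by distance from its listed start in kb, with circles for Ad_Cont, triangles for Ad_Cre, blue for control and orange for B2_minus; triangles are offset to the right. The 3 called regions hold 30.1 scaled tags or fewer in each group mean, and the orange points lie below the blue ones there, while the start region near 90 scaled tags shows no such gap.

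Ajuba encodes a LIM-domain adaptor that binds LATS kinases and restrains them. Of its 23 merged regions 9 were tested, and 0 rose or fell. The strongest, chr14:54572867-54573233 inside the gene, held 86.3 ± 2.93 and 87.3 ± 7.17 scaled tags (mean ± SD, n = 3) in control and B2_minus with Ad_Cont, and 85.5 ± 5.98 and 85.7 ± 6.17 with Ad_Cre. Its log2 fold change was 0.01 with a 95% interval of -0.11 to 0.13. The lowest p of the gene was at chr14:54578180-54578439, near the start, with 30.9, 29.9 and 34.5 scaled tags in control against 34.9, 37.3 and 30.5 in B2_minus with Ad_Cont, and 28.7, 27.8 and 28.0 against 36.5, 35.4 and 30.8 with Ad_Cre. The log2 fold change there was 0.19 (edgeR adjusted p 0.350), with groups that overlapped with Ad_Cont and separated with Ad_Cre.

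Ccn1, Ccn2 and Ankrd1 are the most used reporters of YAP activity. Ccn1 and Ccn2 encode secreted matrix proteins that signal through integrins, and Ankrd1 an ankyrin repeat protein of nucleus and sarcomere. Ccn1 had 55 merged and 17 tested regions, of which 0 rose and 1 fell. The fallen region, chr3:145684958-145685428, lies 34973 bp upstream of the start and was the second strongest of the gene. It held 89.5, 75.7 and 86.4 scaled tags in control and 65.4, 77.8 and 76.8 in B2_minus with Ad_Cont, which overlapped, and 82.7, 90.5 and 86.7 against 72.0, 74.7 and 71.6 with Ad_Cre, which did not. The averaged log2 fold change was -0.23 (SE 0.0632; edgeR adjusted p 0.0166), and the call was lost without B2_minus Ad_Cont replicate 1 (-0.18, adjusted p 0.0933) or control Ad_Cont replicate 1 (-0.20, adjusted p 0.0602).

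The region over the Ccn1 start, chr3:145649879-145650162, holds the printed TEAD core. Its libraries held 88.4, 96.6 and 95.0 scaled tags in control and 86.0, 97.0 and 93.6 in B2_minus with Ad_Cont, and 97.0, 83.5 and 91.1 against 93.9, 91.0 and 81.6 with Ad_Cre. The groups overlapped in both arms, and the log2 fold change was -0.03 with a 95% interval of -0.14 to 0.09.

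Ccn2 had 43 merged and 12 tested regions and moved in both directions, with 1 rise and 2 falls. The risen region, chr10:24552888-24553217, lies 42225 bp outside the gene. It held 22.1, 29.9 and 19.4 scaled tags in control against 30.5, 29.8 and 30.5 in B2_minus with Ad_Cont, and 17.6, 21.9 and 20.2 against 33.4, 29.7 and 29.9 with Ad_Cre. The groups touched with Ad_Cont, where control replicate 2 was as high as B2_minus, and separated with Ad_Cre. The log2 fold change was 0.48 (SE 0.133; edgeR adjusted p 0.0146), and the call was lost without control Ad_Cont replicate 3 (0.42, adjusted p 0.0589).

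The fallen regions of Ccn2 lie inside this short gene, 765 bp from one end and 476 bp from the other. The first, chr10:24596207-24596990, held 38.7, 32.9 and 36.7 scaled tags in control against 26.0, 26.7 and 23.1 in B2_minus with Ad_Cont, and 41.9, 39.8 and 38.6 against 38.6, 32.6 and 28.1 with Ad_Cre. The groups separated with Ad_Cont and met at 38.6 with Ad_Cre. It fell by 0.39 on the log2 scale (SE 0.112; edgeR adjusted p 0.0190), and the call was lost without B2_minus Ad_Cre replicate 3 (-0.34, adjusted p 0.0751) or control Ad_Cont replicate 1 (-0.37, adjusted p 0.0527).

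The second, chr10:24597298-24598207, held 22.1, 21.9 and 31.3 scaled tags in control against 19.7, 20.3 and 17.9 in B2_minus with Ad_Cont, and 23.2, 24.9 and 34.2 against 20.9, 13.4 and 18.1 with Ad_Cre. All 6 B2_minus libraries lay below all 6 control libraries, but by a small margin. The log2 fold change was -0.52 (SE 0.149; edgeR adjusted p 0.0185), and the call was lost without B2_minus Ad_Cre replicate 2 (-0.45, adjusted p 0.0726), control Ad_Cont replicate 3 (-0.43, adjusted p 0.107) or control Ad_Cre replicate 3 (-0.42, adjusted p 0.121). The strongest region of Ccn2, chr10:24595264-24595604, covers the gene end nearer to the first of these and had a log2 fold change of -0.06 with a 95% interval of -0.18 to 0.06.

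Ankrd1 had 31 merged and 5 tested regions, of which 0 rose or fell. The region over its start, chr19:36119826-36120209, holds both printed TEAD cores. It held 54.1, 38.8 and 43.2 scaled tags in control against 43.9, 39.4 and 36.8 in B2_minus with Ad_Cont, and 52.9, 44.7 and 53.4 against 39.6, 45.0 and 39.9 with Ad_Cre. The groups overlapped in both arms. The log2 fold change was -0.22 with a 95% interval of -0.40 to -0.04 (edgeR adjusted p 0.151), the lowest of the 14 member regions within 1 kb of a listed start. The strongest region, chr19:36129213-36129593, lies 9369 bp upstream and had a log2 fold change of -0.03 with a 95% interval of -0.18 to 0.12.

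**Figure D3:**
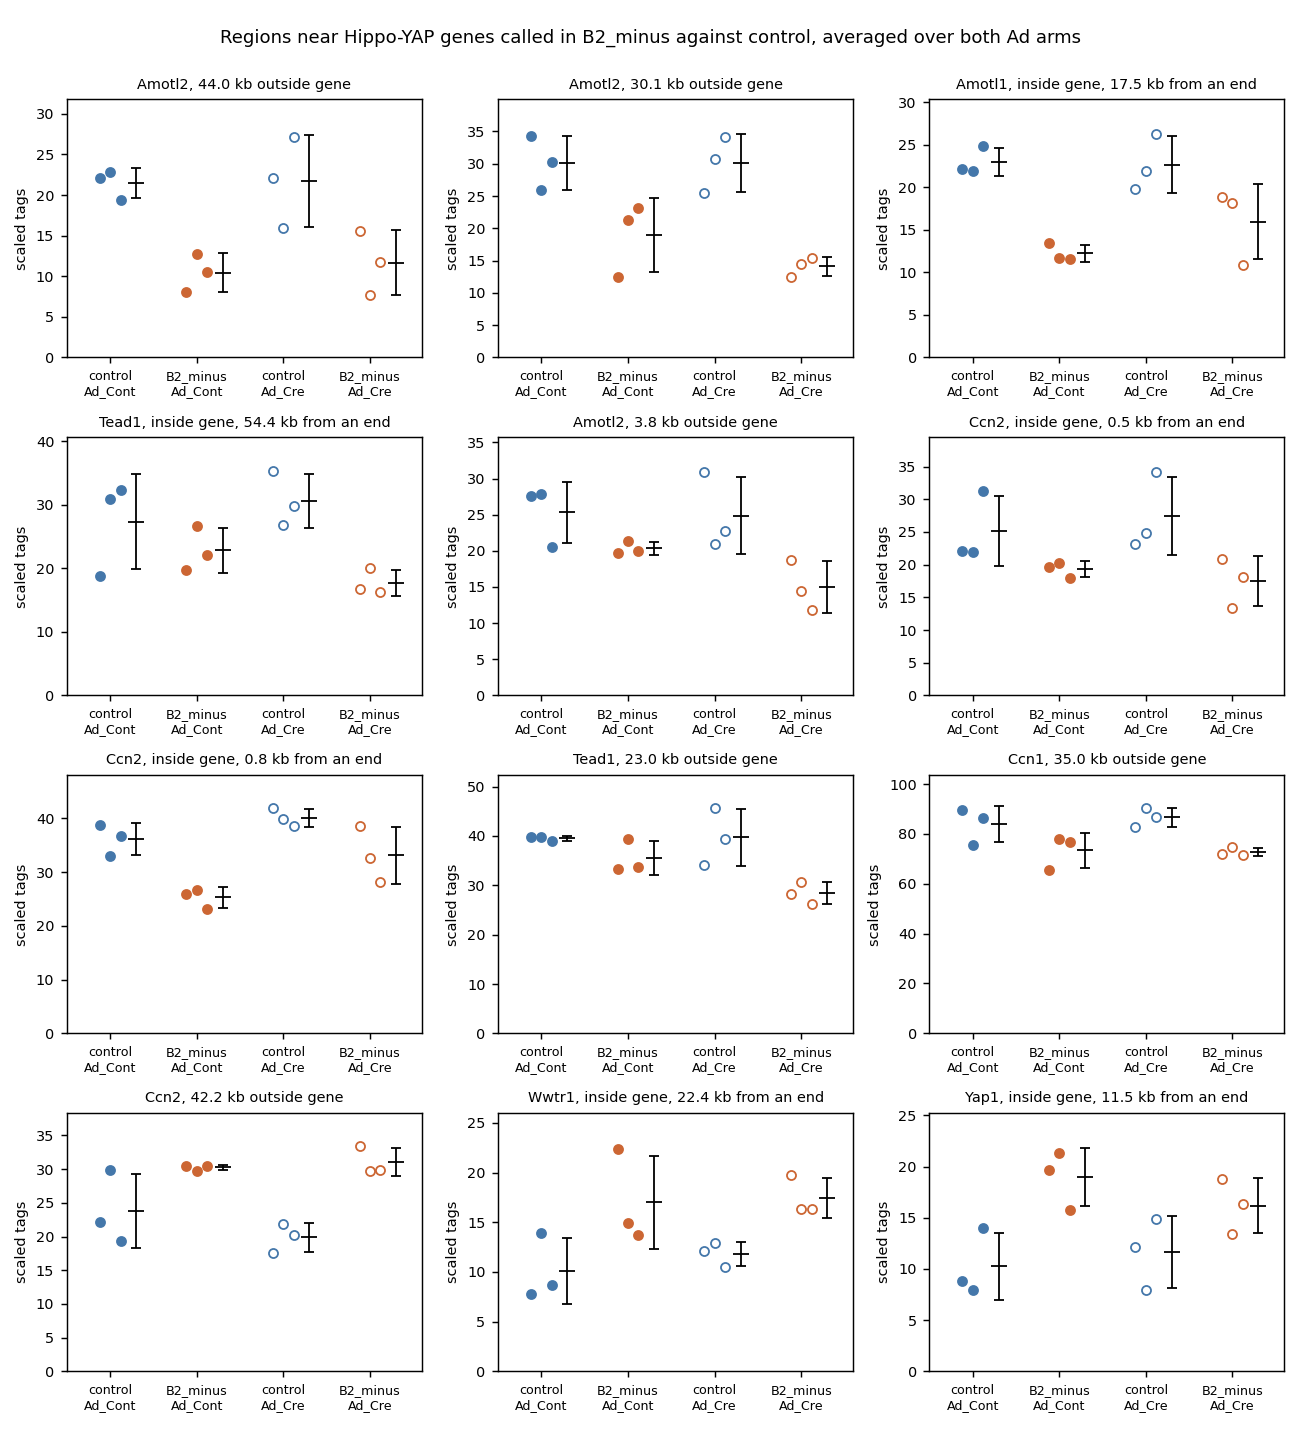
Scaled tags of each library (points) with group mean and SD (bars, n = 3) at the 12 member regions called in the averaged comparison, ordered by log2 fold change from the largest fall to the largest rise; filled points are Ad_Cont, open points Ad_Cre. The diet groups do not overlap in either arm at both upper left Amotl2 panels, at Amotl1 and at the Ccn2 region 0.5 kb from a gene end, and the remaining panels show an overlap in at least 1 arm.

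By position, the 14 regions within 1 kb of a listed start site belonged to 7 genes and had log2 fold changes of -0.22 to 0.19. At gene ends 2 of 25 member regions were called, or 8.0% against 3.21% of all tested regions at gene ends. Both lay inside the short gene Ccn2. Inside genes 4 of 65 were called, or 6.15% against 5.67%. Outside genes 6 of 46 were called, or 13.0% against 6.89% of all regions so placed, and 5 of the 6 fell. Member regions lay inside genes in 47.8% (46.0% of all tested regions), at gene ends in 18.4% (21.3%) and outside genes in 33.8% (22.7%), and a further 9.95% of all regions had no gene within 50 kb.

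The effects in each Ad arm alone gave few calls. With Ad_Cont 0 regions rose and 2 fell, the Amotl1 region and the most distant called Amotl2 region, or 1.47% of 136 against 1.04% of all regions, of which 0.423% were higher and 0.618% lower. With Ad_Cre 0 rose and 3 fell, the region inside Tead1 and both distal Amotl2 regions, or 2.21% against 1.13% of all, of which 0.354% were higher and 0.774% lower. Of the 136 regions, 93 (68.4%) had the same sign in both arms, against 62.3% of all regions. In both arms pooled, 5 regions had all 6 B2_minus libraries below all 6 control libraries (3.68%, against 1.33% of all regions), and 0 had them all above (0.898% of all). These 5 were the 4 regions of Amotl1, Amotl2 and Ccn2 given above and the uncalled region inside Tead1. Within Ad_Cont the groups did not overlap at 11 member regions higher in B2_minus and 11 lower, or 8.09% each against 8.64% and 8.63% of all regions. Within Ad_Cre there were 9 and 13, or 6.62% and 9.56% against 8.54% and 8.95%. Leaving out a library changed these small counts: with Ad_Cont 0 calls remained without B2_minus Ad_Cont replicate 1 or 3 or control Ad_Cont replicate 1 or 2, and 1 without B2_minus Ad_Cont replicate 2. With Ad_Cre 1 remained without B2_minus Ad_Cre replicate 3, control Ad_Cre replicate 1 or control Ad_Cre replicate 3.

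The difference between Ad_Cre and Ad_Cont asked whether the AhR_flox cells given Cre had other chromatin around these genes. EdgeR called 0 of the 136 regions in control (0.00591% of all regions were called) and 0 in B2_minus (0.00197% of all). At an unadjusted p under 0.05 there were 12 regions in control and 11 in B2_minus, or 8.82% and 8.09%, close to the 7.82% and 7.29% of all regions, and DESeq2 also called 0 in each. The lowest adjusted p in control was 0.263, at chr7:112663303-112663594 upstream of Tead1, with 33.3 ± 4.71 scaled tags with Ad_Cont and 47.2 ± 5.45 with Ad_Cre (n = 3). In B2_minus it was 0.534, at chr3:145640679-145640979 downstream of Ccn1, with 22.7 ± 3.98 and 31.8 ± 3.13 scaled tags (n = 3, edgeR). The interaction, which tests whether the diet effect differed between the arms, gave 0 calls by edgeR and by DESeq2 (0.0% of all regions by edgeR). Its lowest adjusted p was 0.919, and 8 regions (5.88%, against 5.14% of all) had an unadjusted p under 0.05.

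Regions listed in only some libraries were counted without a test. Of the 675 merged regions, 0 had a peak in all 6 control libraries and in 0 of B2_minus (0.0118% of all merged regions did), and 0 the reverse (0.007%). With at least 5 libraries of one diet and at most 1 of the other, 3 were listed in control, beside 0.245% of all merged regions, and 1 in B2_minus, beside 0.196%. Of the 3, a pair lies inside Amotl1, chr9:14596467-14596763 (9 to 10 tags where listed) and chr9:14604421-14604748 (7 to 15 tags), each listed in 5 control and 0 B2_minus libraries. The third, chr9:102759618-102760099 (7 to 16 tags), was listed in 6 control libraries and 1 B2_minus library, and lies 3402 bp from the Amotl2 region with the lowest p. All 3 held few tags, near the 6 to 8 of the lowest peaks listed.

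The region listed in B2_minus, chr3:57576167-57576412, lies beside chromatin that was open in every library. It was listed at 42 to 59 tags in 5 B2_minus libraries and 1 control library, 80 bp from the Wwtr1 start region, which held 88.7 to 105 scaled tags in all 12 libraries. Within the arms, 2 member regions were listed in 3 of 3 control and 0 of 3 B2_minus libraries with Ad_Cont (0.256% of all merged regions were), and 6 with Ad_Cre (0.469%). The reverse held for 1 with Ad_Cont (0.334%) and 0 with Ad_Cre (0.222%).

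Other genes of the pathway were read from lists of upstream kinases and adaptors, TEAD factors and cofactors, further YAP targets, and genes of bile duct and progenitor cells. In the averaged comparison 2 of 165 regions near 20 upstream genes rose and 7 fell (5.45% called, against 5.78% of all regions). The falls lay near Ptpn14, a phosphatase that binds YAP, near the kinase Taok3, near Wtip, a LIM adaptor related to Ajuba, and near Wwc2, and the rises near Wwc1 and Frmd6. Ptpn14 had 3 fallen regions, of which chr1:189727869-189728156 went from 44.6 ± 8.24 to 31.7 ± 2.06 scaled tags with Ad_Cont and from 42.0 ± 3.97 to 27.2 ± 4.08 with Ad_Cre (n = 3). Its log2 fold change was -0.57 (SE 0.108; edgeR adjusted p 0.000176).

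Near the TEAD factors and cofactors 0 of 100 regions rose and 3 fell. Falls were thus 3.0% of this list, against 3.33% of all regions. They lay near Tead4 (-0.46, edgeR adjusted p 0.00324), Runx1 (-0.42, edgeR adjusted p 0.0223) and Runx2 (-0.59, edgeR adjusted p 0.0321). The Runx genes encode factors that can partner YAP. Near 16 other YAP target genes 1 of 163 regions rose, at Nt5e, and 11 fell. Those that fell lay near Myof, Nuak2, Igfbp3, Axl, Arhgef17, Dock5, Ccdc80 and Crim1, that of Igfbp3 22267 bp outside the gene. Falls made up 6.75% of this list, beside 3.33% of all regions, and its median log2 fold change was -0.043. The region of Myof, a membrane repair gene, went from 20.8 ± 1.95 to 12.3 ± 1.52 scaled tags with Ad_Cont and from 25.4 ± 7.52 to 13.5 ± 0.998 with Ad_Cre (n = 3), a log2 fold change of -0.82 (SE 0.168; edgeR adjusted p 0.000479).

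Of 77 regions near 9 bile duct and progenitor genes, 1 rose, at Prom1, and 9 fell (11.7%, against 3.33% of all). Among the falls were regions near Sox4, Krt7, Krt19 and Spp1, that of Krt19 11424 bp outside the gene. Most of the falls lay near Sox4 and Spp1, which had several each, some of them close neighbours. The region chr13:28917910-28918216 lies 30703 bp outside Sox4, which encodes a transcription factor active in ductal cells. It went from 48.3 ± 6.01 to 29.6 ± 1.06 scaled tags with Ad_Cont and from 44.6 ± 8.41 to 29.7 ± 1.59 with Ad_Cre (n = 3). The region chr15:101424722-101425239 lies inside Krt7, a ductal keratin gene. It went from 19.0 ± 2.48 to 9.27 ± 2.64 scaled tags with Ad_Cont and from 19.7 ± 1.28 to 10.4 ± 2.18 with Ad_Cre (n = 3). The lists were chosen with earlier results of these data known, so their direction is not independent evidence.

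**Figure D4:**
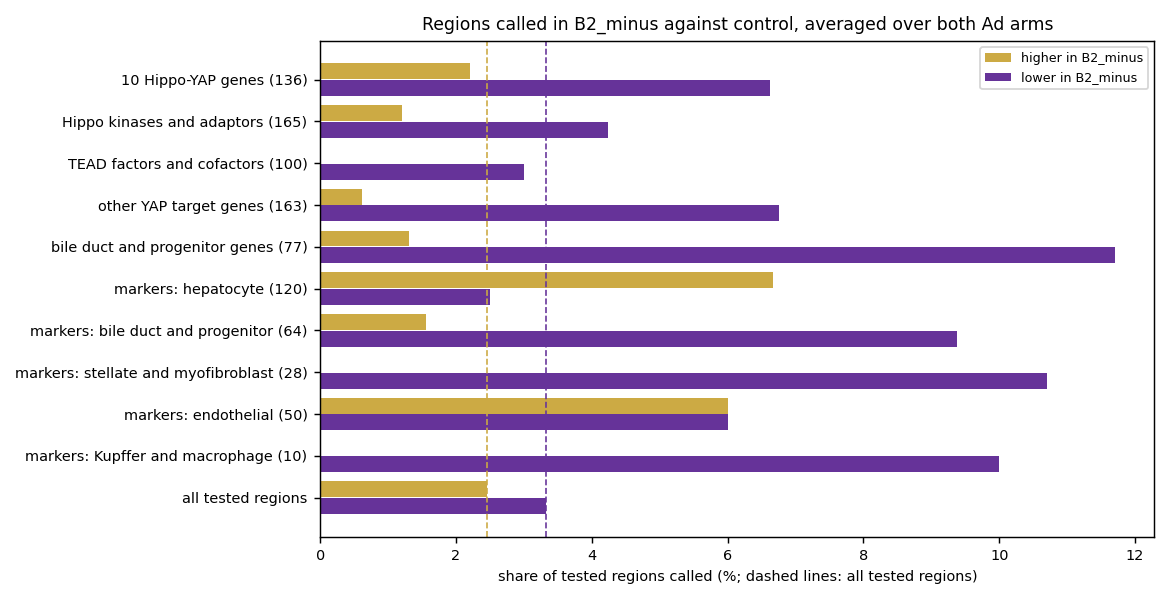
Share of tested regions called in the averaged comparison (percent, horizontal axis) for the 10 genes, the 4 other pathway lists, 5 lists of cell type markers and all tested regions, with the number of tested regions in brackets; gold bars are rises, purple bars falls and dashed lines the shares over all regions. Falls reach 6.62% for the 10 genes and 11.7% for the bile duct and progenitor genes, beside 3.33% of all regions.

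Markers of other liver cells and of hepatocytes were counted too. Over all tested regions, 2.45% rose and 3.33% fell. Of 28 regions near 8 stellate cell and myofibroblast markers, 0 rose and 3 (10.7%) fell, at Lrat and outside Col1a1 (20217 and 7095 bp). Their summed level was 710.4 to 730.7 scaled tags in control and 634.3 to 678.5 in B2_minus with Ad_Cont, and 695.0 to 765.3 against 619.3 to 690.6 with Ad_Cre, without overlap in either arm. Of 64 regions near 8 bile duct markers, 1 (1.56%) rose and 6 (9.38%) fell. Their summed level was 1879.4 to 1907.3 scaled tags in control and 1809.0 to 1889.4 in B2_minus with Ad_Cont, and 1827.2 to 1938.1 against 1750.2 to 1849.5 with Ad_Cre, with an overlap in each arm.

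Of 120 regions near the 10 hepatocyte markers, 8 (6.67%) rose and 3 (2.5%) fell. The sum of the 120 was 3116.2 to 3180.6 scaled tags in control and 3240.7 to 3286.6 in B2_minus with Ad_Cont, and 2993.8 to 3134.0 against 3220.2 to 3282.4 with Ad_Cre. These sums were higher in B2_minus, without overlap in either arm. Endothelial markers had 3 rises and 3 falls in 50 regions, or 6.0% each. Their sum was 1260.0 to 1321.0 scaled tags in control and 1303.7 to 1335.1 in B2_minus with Ad_Cont, which overlapped, and 1271.3 to 1316.6 against 1319.3 to 1348.6 with Ad_Cre, which did not. Kupffer cell markers had 0 rises and 1 fall (10.0%) in 10 regions, with sums of 258.8 to 276.3 against 277.2 to 284.0 with Ad_Cont and 275.4 to 286.7 against 272.0 to 287.4 with Ad_Cre. The Kupffer sums overlapped with Ad_Cre only. The summed level of the 136 member regions was 4373.1 to 4513.0 scaled tags in control and 4360.4 to 4510.3 in B2_minus with Ad_Cont, and 4462.3 to 4599.3 against 4385.0 to 4480.8 with Ad_Cre, with overlap in both arms. The part of these other cells in the falls near Amotl1, Amotl2 and the YAP targets was not tested.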

How the data were processed

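The deposited lists give 1 ATAC-seq peak per line without a header, and their authors' values per peak are whole numbers read here as tag counts. Whether the authors scaled and rounded these counts first cannot be told from the values. The spread between libraries was below Poisson counting (median variance over mean 0.558). Bowtie2, HOMER, mm10 and hg38 are named per the submitters' processing notes, and their settings are not given. The 12 hepatocyte lists were merged, leaving out 0.151% of peaks off the autosomes and X, and a region took each library's highest peak. Gene bodies came from the RefSeq table for GRCm38.p6. Regions with a peak in all 12 libraries were fitted with edgeR 4.0.16 in R 4.3.3 (TMM, 4 groups, quasi-likelihood test with legacy set to FALSE, as in an earlier analysis of these data). A check on simulated data drew Poisson counts, so it did not cover the smaller spread of these libraries. Alternatives used DESeq2 1.42.0, limma 3.58.1 on log2 of scaled tags plus 1, other scalings, filters, overlaps and distances, and each library left out. Named regions are, per gene, the strongest, every called one and otherwise that with the lowest p, and for the other lists up to 3 with the lowest p. Members, lists and the averaged comparison were chosen with earlier results of these data known. The 8 HepG2 libraries were not analysed here. A few genes that the naming rule covers are not reported here.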

Additional observations from a re-analysis of the deposited data

How the results depend on the processing

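With Ad_Cont, 2 member regions were called, and 0 by DESeq2, by edgeR bounded at Poisson variance, with a peak in at least 3 libraries or with sums of peaks, 1 with genes within 10 kb, and 0 to 2 when a library was left out. With Ad_Cre, 3 were called, and 0, 0, 0 and 0 in those 4 settings, 1 within 10 kb, 5 with library size from listed tags, and 1 to 3 when a library was left out. Library size from listed tags gave 4077 higher and 482 lower of all 101575 regions in this arm. Averaged over both arms, 12 were called, and 0, 3, 7 and 3 in those 4 settings, 7 within 10 kb, and 7 to 12 when a library was left out. Overlap of at least 100 bp, peaks of at least 10 tags and limma kept these counts within 1.5 times. For effects of Ad_Cre and the interaction, each alternative also gave 0. Replicate numbers did not pair the libraries (r of same-numbered deviations -0.0161 to 0.0123), and a replicate block gave 2, 3 and 12 calls. The 12 called regions kept their direction in every alternative run. Directions reversed at regions that were not called and near 0. With library size from listed tags the log2 fold changes became 0.09 (Wwtr1 start), 0.02 (Tead1 strongest), 0.08 (Lats2 strongest), 0.07 (Ccn1 start), 0.03 (Ccn2 strongest) and 0.06 (Ankrd1 strongest), and for regions listed in 3 libraries or more 0.11, 0.04, 0.10, 0.09, 0.05 and 0.08. Sums of peaks gave 0.10 at Tead1, and peaks of at least 10 tags -0.01 at Ajuba. Leaving out 1 library gave -0.04 to 0.02 at Wwtr1, -0.04 to 0.02 at Lats2, -0.05 to 0.00 at Ccn1, -0.07 to 0.02 at Ankrd1 and -0.02 to 0.04 at Ajuba. The cause was not tested. Regions listed in fewer than 12 libraries were tested only where a peak in 3 libraries was enough and otherwise counted.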
